A study of Rattus norvegicus with 12 samples.

Results

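Expression in the thoracic aorta of spontaneously hypertensive rats (SHR) given the herbal preparation BSJY at its high dose, the group SHR-Bh, was set against that of untreated normotensive Wistar-Kyoto (WKY) rats. The comparison was chosen by group label, so its members were the 6 arrays of those groups, 3 in each, out of 12 in the series. According to the labels, male SHR and WKY rats entered the study at 12 weeks of age and were dosed by gavage once a day for 16 weeks. The label of each sample states 32 weeks as the age. SHR-Bh rats received BSJY, a set of 8 herbal granules dissolved in water, at 6.75 g/ml/day as the labels write it, and WKY rats received an equal volume of drinking water. SHR-C rats, the untreated SHR control, also received water, and SHR-Ca rats received captopril, an inhibitor of angiotensin-converting enzyme, at 0.125 g/ml/day. Both the strain and the treatment therefore differed between SHR-Bh and WKY, and the SHR-C arrays were the only ones that set BSJY against water within the strain. The labels do not say whether an array held the RNA of 1 rat or of a pool, so p-values measure the spread between these arrays.

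The SHR is an inbred strain derived from Wistar-Kyoto stock by selection for high blood pressure, and WKY is its usual normotensive control. The thoracic aorta is an elastic artery whose wall consists of an endothelial lining, layers of smooth muscle between elastic sheets, and an outer coat with fibroblasts, nerves and fat around it. In long-standing hypertension the aortic wall thickens and stiffens. Bulk tissue was measured here, so fewer cells of a type and less RNA per cell cannot be told apart.

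Total RNA, marked with the dye Cy3, was measured on Agilent arrays of the single-colour kind. Levels are given as log2 intensity relative to the 75th percentile of the same array, so that 0 is the 75th percentile and 1 unit is a 2-fold difference in intensity; differences between groups are in the same log2 units. The array held 38321 different probes, of which 37277 carry only the design's own identifiers, 962 target ultraconserved elements, and 39 could be named as 38 genes through an accession. None of the 45 marker genes listed for smooth muscle, endothelium, fibroblasts, fat, nerve, blood and other cell types was among the named genes, so the tissue label was not checked against its markers and the part of cell makeup in any result was not tested. The WKY arrays were brighter than the SHR-Bh arrays. Of all probes, the percentage well above background was 73.9%, 83.8% and 87.9% on the WKY arrays (81.9% ± 7.19, SD, n = 3) and 61.6%, 51.2% and 62.4% on the SHR-Bh arrays (58.4% ± 6.28, SD, n = 3), without overlap (exact two-sided permutation p = 0.1, the smallest that 3 arrays against 3 allow). Median intensity was 66.1 ± 22 in WKY and 16.0 ± 3.71 in SHR-Bh (SD, n = 3 each; exact two-sided permutation p = 0.1). The WKY arrays shared a scan session, and the SHR-Bh arrays were scanned 625 to 629 days before it, so that the scan session and the groups cannot be told apart.

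In the aorta of BSJY-treated SHR, 19713 of 28844 tested probes (68.3%) differed from WKY at an adjusted p under 0.05. Of these, 7027 (24.4% of the tested probes) were higher and 12686 (44.0%) were lower in SHR-Bh. The median change over all tested probes was -0.59, so 0 on this scale is not the middle of all tested probes. Testing was limited to probes well above background on every SHR-Bh or every WKY array, and the balance of calls differed by where a probe was measurable. Among the 18222 probes measured on all 6 arrays, 6321 (34.7%) were higher and 4412 (24.2%) were lower, with a median change of 0.31. A further 5075 probes were above background on all WKY arrays and on no SHR-Bh array, and 4899 of these were lower. The reverse class held 48 probes, all of them higher in SHR-Bh. The greater number of lower calls thus came with the greater brightness of the WKY arrays, whose part in those calls was not tested. The lower share also moved with the scaling: the calls were 8129 higher and 9543 lower after quantile normalization, and 6522 higher and 5379 lower after normexp background correction.

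**Figure D1:**
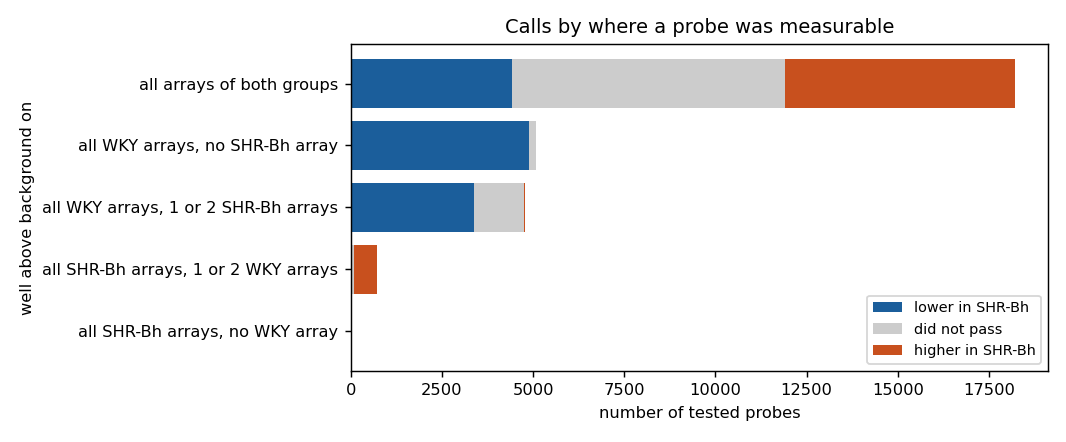
Number of tested probes (horizontal axis) called lower, not called or called higher in SHR-Bh than in WKY, by the arrays on which a probe was well above background (rows). Of the 18222 probes measured on all 6 arrays 6321 were higher and 4412 lower, whereas the 5075 probes measured on WKY arrays alone held 4899 lower calls and no higher call.

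**Figure D2:**
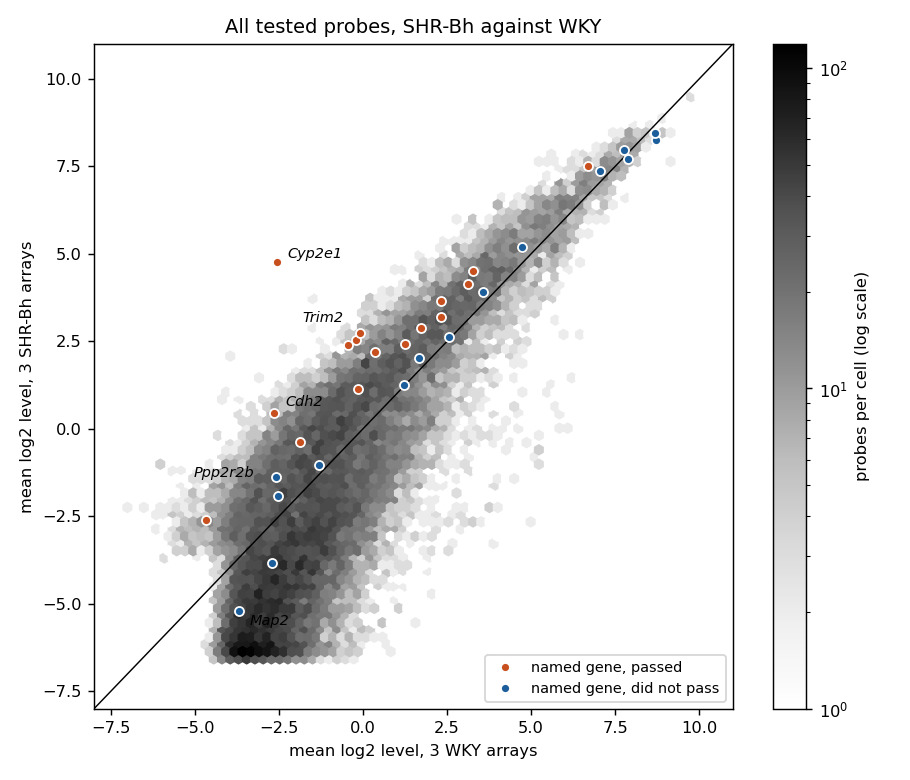
Mean log2 level of each tested probe relative to the array's 75th percentile, on the 3 WKY arrays (horizontal axis) and the 3 SHR-Bh arrays (vertical axis); grey shading counts probes on a log scale, the line marks equal levels and coloured points are the named genes. Cyp2e1 lies far above the line, at -2.56 in WKY and 4.78 in SHR-Bh.

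The arrays of a group resembled each other more than those of the other group. Across tested probes, which are not independent replicates, the correlation of levels was 0.954 to 0.989 among WKY arrays, 0.964 to 0.983 among SHR-Bh arrays and 0.803 to 0.831 between the groups. Between SHR-Bh and SHR-C arrays it was 0.943 to 0.980. The median SD of a probe was 0.23 over the WKY arrays and 0.36 over the SHR-Bh arrays.

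Of the 38 named genes, 31 passed the filter on low values and 7 did not. The probes of 16 genes were higher in SHR-Bh (51.6% of the 31, against 24.4% of all tested probes), none was lower (against 44.0%), and 15 did not pass the test. The median change of the 31 genes was 0.90, against -0.59 over all tested probes. On 28 of the genes the probe was well above background on all 6 arrays, where 58.9% of all probes were called, 34.7% higher and 24.2% lower. When only such probes were tested, 14 of these 28 genes were higher and 0 lower. Their median change was 0.96, against 0.31 over all such probes. For 18 genes (58.1%) the SHR-Bh and WKY arrays did not overlap, against 75.8% of all tested probes: SHR-Bh was the higher in 16 of them (27.4% of all tested probes) and the lower in 2, Fgf2 and the brighter Ldha probe (48.4%). The second Ldha probe did not overlap in the opposite direction. The 16 higher genes kept their sign under each alternative in which they were tested, and 13 of them kept their call under each; Slc28a2, Cse1l and Rpl13a did not. Mex3c, which passed the filter through SHR-Bh alone, was not tested under the strict filter, where only probes above background on all 6 arrays were kept.

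**Figure D3:**
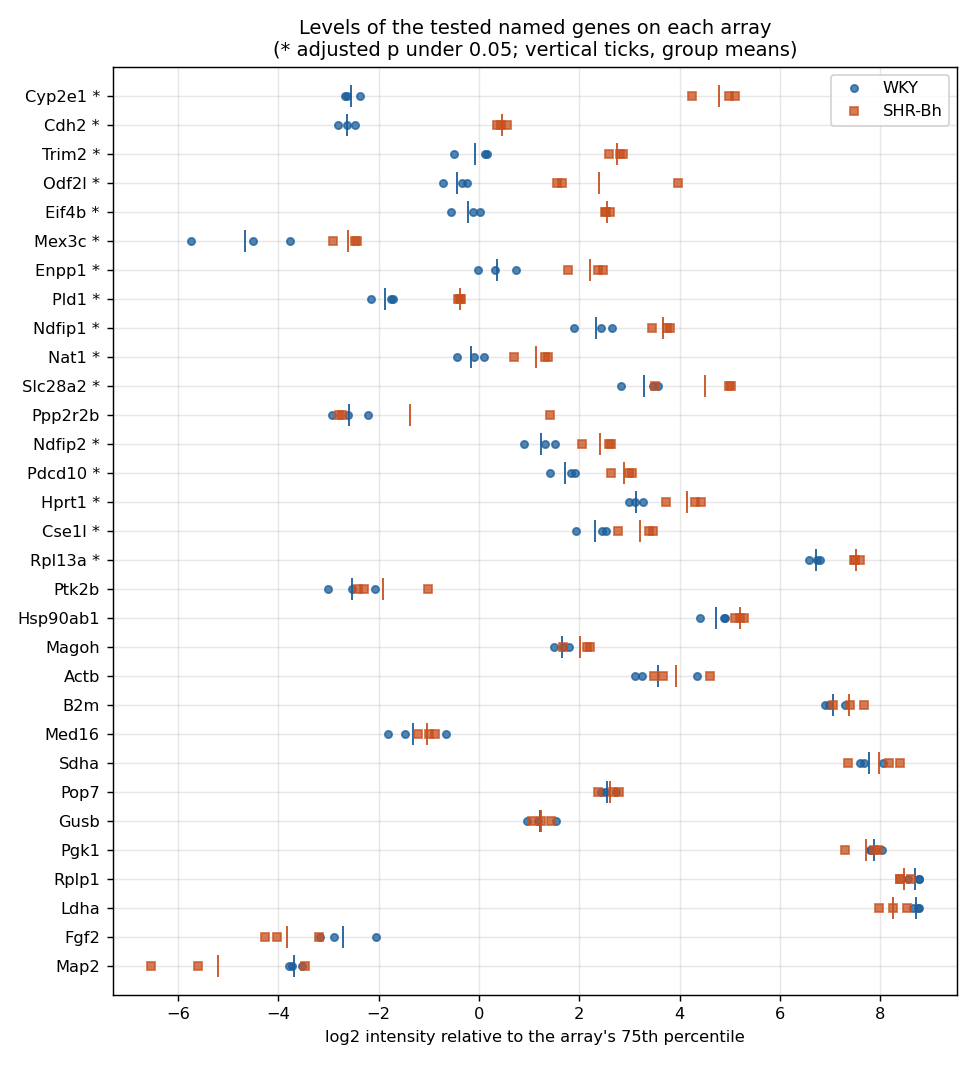
Log2 level relative to the array's 75th percentile (horizontal axis) of the 31 tested named genes (rows) on each WKY and SHR-Bh array (points), with group means as vertical ticks and an asterisk where the adjusted p was under 0.05. Cyp2e1 and Cdh2 show a wide gap between the groups, while the highly expressed Pgk1 and Rplp1 lie close together.

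The widest difference among the named genes was in xenobiotic metabolism, the chemical handling of drugs and foreign compounds. Cyp2e1, a cytochrome P450 that oxidises ethanol, ketones and small solvents and is abundant in liver, lay at -2.67, -2.38 and -2.62 on the WKY arrays and at 4.25, 5.09 and 4.99 on the SHR-Bh arrays. Every SHR-Bh array was far above every WKY array. The fitted change was 7.33 (SE 0.29, 95% confidence interval 6.70 to 7.96; adjusted p = 3.9e-08), a 161.3-fold difference, and 1 of the 28844 tested probes had a larger rise. Over the alternatives its change ranged from 5.85 with normexp to 7.99 with quantile normalization. Before scaling, its intensities were 28.6, 66.4 and 62.4 in WKY and 2082.1, 6292.0 and 4747.9 in SHR-Bh, so its raw intensity was the higher on the arrays that were dimmer as a whole. Of the other higher genes, Cdh2, Trim2, Odf2l and Eif4b also had no overlap between the groups before scaling, while the rest overlapped. All calls were made after scaling by the array's 75th percentile, which averaged 303.9 in WKY and 147.7 in SHR-Bh. No hepatocyte or adipocyte marker was among the named genes. The other named gene of the list, Nat1, an arylamine N-acetyltransferase, lay at -0.45, 0.09 and -0.09 in WKY and at 0.71, 1.32 and 1.38 in SHR-Bh. Its groups did not overlap either, and it rose by 1.28 (SE 0.33; adjusted p = 0.0047). Of the 10 genes listed for xenobiotic metabolism, these were the 2 that the array names. Both were higher, as were 34.7% of all probes measured on all 6 arrays.

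Start regions were read from the RefSeq promoter table (assembly GRCr8), which held 28 of the 38 named genes. It did not hold Cdh2, Eif4b, Mex3c or Enpp1, which all rose more than Pld1. The 250 bases before the annotated start are shown for Cyp2e1, Trim2, Odf2l and Pld1, the 4 higher genes with the widest change that the table holds, so that the start of each can be read beside its level. Capitals mark matches on either strand to the TATA box (TATAAA), the CCAAT box (CCAAT), the GC box (GGGCGG), the HNF1 half-site (GTTAAT) or the E-box (CACGTG).
Cyp2e1 (chr1:205269717-205269966, plus strand): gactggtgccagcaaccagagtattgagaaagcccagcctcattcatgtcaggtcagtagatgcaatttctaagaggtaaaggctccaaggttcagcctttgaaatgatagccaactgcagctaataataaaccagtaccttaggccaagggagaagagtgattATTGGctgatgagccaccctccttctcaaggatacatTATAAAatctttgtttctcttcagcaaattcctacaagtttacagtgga
Trim2 (chr2:171862445-171862694, minus strand): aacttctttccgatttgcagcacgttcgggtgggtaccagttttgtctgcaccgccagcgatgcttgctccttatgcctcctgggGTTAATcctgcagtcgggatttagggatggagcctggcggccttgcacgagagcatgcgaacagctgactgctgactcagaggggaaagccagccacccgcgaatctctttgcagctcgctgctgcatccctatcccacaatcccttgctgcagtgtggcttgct
Odf2l (chr2:236696139-236696388, plus strand): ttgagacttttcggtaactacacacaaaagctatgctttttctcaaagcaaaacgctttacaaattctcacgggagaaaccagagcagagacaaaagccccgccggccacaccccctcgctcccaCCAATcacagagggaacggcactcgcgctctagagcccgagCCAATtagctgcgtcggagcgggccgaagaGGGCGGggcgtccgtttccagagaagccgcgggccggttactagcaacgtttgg
Pld1 (chr2:112821926-112822175, plus strand): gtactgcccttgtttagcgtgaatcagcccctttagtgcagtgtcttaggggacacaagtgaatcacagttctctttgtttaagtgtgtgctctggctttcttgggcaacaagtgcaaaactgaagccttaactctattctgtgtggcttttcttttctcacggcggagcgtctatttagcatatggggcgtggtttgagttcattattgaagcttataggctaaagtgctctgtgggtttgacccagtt
The Cyp2e1 window held a TATA box whose first base lies at -49 from the start and a reverse-strand CCAAT box at -86, with 42.8% GC and 0 CpG. Trim2 had an HNF1 half-site at -165 and 57.2% GC. Odf2l had CCAAT boxes at -125 and -84, a GC box at -54, and 21 CpG. The Pld1 window matched none of these letters. Among 33469 promoters of the same length, 12.9% held TATAAA, 34.0% CCAAT, 30.5% GGGCGG, 6.5% GTTAAT and 5.6% CACGTG, and the median GC content was 51.2%. A match is a description of the sequence and was not related to binding here.

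Cdh2, or N-cadherin, is a calcium-dependent adhesion protein through which vascular smooth muscle cells contact each other and the endothelium. Its level was -2.64, -2.46 and -2.81 on the WKY arrays and 0.56, 0.44 and 0.37 on the SHR-Bh arrays. The SHR-Bh arrays lay within 0.10 of each other by SD, and the change was 3.09 (SE 0.34; adjusted p = 1.5e-05), an 8.53-fold difference. The change was 1.93 with normexp and 3.92 with quantile normalization. It was the only one of 8 listed adhesion genes that the array names.

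In ubiquitin ligation, ligases and their adaptors tag proteins for degradation or sorting. Of 4 named genes, the 3 measured on all 6 arrays, Trim2, Ndfip1 and Ndfip2, were higher in SHR-Bh, where 34.7% of all probes measured on all 6 arrays were. Trim2, a RING-finger ubiquitin ligase, lay at -0.50, 0.17 and 0.12 in WKY and at 2.58, 2.80 and 2.86 in SHR-Bh, a change of 2.83 (SE 0.29; adjusted p = 8.5e-06) or 7.09-fold. Ndfip1 and Ndfip2 are membrane adaptors that recruit and activate ligases of the Nedd4 family. Ndfip1 lay at 1.89, 2.44 and 2.64 in WKY and at 3.45, 3.74 and 3.81 in SHR-Bh (change 1.34, SE 0.23; adjusted p = 0.00037). Ndfip2 lay at 0.90, 1.51 and 1.32 in WKY and at 2.04, 2.59 and 2.62 in SHR-Bh (change 1.17, SE 0.26; adjusted p = 0.0019). The groups did not overlap in any of these. Mex3c, an RNA-binding ubiquitin ligase, was dim and passed the filter through SHR-Bh alone: it lay at -5.73, -4.51 and -3.76 in WKY, where 2 of 3 arrays were above background, and at -2.91, -2.44 and -2.46 in SHR-Bh (change 2.07, SE 0.46; adjusted p = 0.0019). Over the alternatives its change ranged from 0.82 with normexp to 3.27 with quantile normalization.

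Enpp1 makes extracellular pyrophosphate from ATP, and pyrophosphate restrains mineral deposition in the artery wall. It lay at -0.01, 0.32 and 0.74 in WKY and at 1.77, 2.37 and 2.47 in SHR-Bh. The groups were apart by more than their spread, with a change of 1.85 (SE 0.30; adjusted p = 0.0002), 3.61-fold. None of the other 6 listed genes of pyrophosphate and calcification is named on the array.

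Among genes of translation, 2 of the 3 named were higher, the initiation factor Eif4b and the ribosomal protein Rpl13a; 34.7% of all probes measured on all 6 arrays were higher. Eif4b, which stimulates the RNA helicase that unwinds messenger RNA leaders, lay at -0.56, -0.12 and 0.03 in WKY and at 2.52, 2.52 and 2.61 in SHR-Bh (change 2.77, SE 0.25; adjusted p = 4.4e-06; 6.81-fold). Rpl13a, a protein of the large ribosomal subunit, lay at 6.73, 6.81 and 6.59 in WKY and at 7.47, 7.49 and 7.60 in SHR-Bh, a change of 0.81 (SE 0.21; adjusted p = 0.0056). With the percentile taken over probes above background on all 6 arrays, this change was 0.41 and its call was lost (adjusted p = 0.088). Rplp1, of the ribosomal stalk, lay at 8.77, 8.76 and 8.56 in WKY and at 8.39, 8.61 and 8.40 in SHR-Bh, which overlapped, and did not pass the test (change -0.23, SE 0.22; adjusted p = 0.37). Both ribosomal proteins also serve as reference genes; the difference between their changes was not tested.

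Of the other named genes of signalling, transport and vessel growth, Pld1, Pdcd10, Cse1l and Slc28a2 were higher and Fgf2 did not pass the test. Pld1, a phospholipase that releases phosphatidic acid from phosphatidylcholine, lay at -2.14, -1.70 and -1.75 in WKY and at -0.41, -0.36 and -0.38 in SHR-Bh (change 1.49, SE 0.37; adjusted p = 0.0038), and quantile normalization gave 2.09 where normexp gave 0.95. Pdcd10, a product of the cerebral cavernous malformation loci that acts in endothelial junctions, lay at 1.41, 1.91 and 1.84 in WKY and at 2.64, 3.06 and 2.99 in SHR-Bh (change 1.17, SE 0.23; adjusted p = 0.00079). For both genes all SHR-Bh arrays exceeded all WKY arrays. Cse1l, the export receptor that returns importin alpha to the cytoplasm, lay at 1.94, 2.53 and 2.46 in WKY and at 2.76, 3.39 and 3.48 in SHR-Bh (change 0.90, SE 0.26; adjusted p = 0.0091), and did not pass with normexp (change 0.70; adjusted p = 0.0538). Slc28a2, a sodium-coupled purine nucleoside transporter, lay at 3.47, 3.56 and 2.82 in WKY and at 3.51, 4.98 and 5.03 in SHR-Bh. Array SHR-Bh 1 lay within the WKY range, and the change of 1.22 (SE 0.51) was at the edge of the threshold (adjusted p = 0.0497). Its adjusted p ranged from 0.0024, with array weights, to 0.16, without SHR-Bh 3; without SHR-Bh 1 the change was 1.72 (adjusted p = 0.0089). When the replicate number was blocked the adjusted p was 0.063. Fgf2, a growth factor for endothelium and smooth muscle, was dim and had the opposite sign: -3.16, -2.89 and -2.05 in WKY against -3.19, -4.25 and -4.02 in SHR-Bh, where 2 of 3 arrays were above background. It did not pass the test (change -1.12, SE 0.49; adjusted p = 0.062), and its sign turned to 0.11 with quantile normalization and 0.05 with normexp.

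Of 10 reference genes, which are commonly used to normalise other measurements, Hprt1 and Rpl13a were higher and the other 8 did not pass. All 10 were measured on all 6 arrays, where 34.7% of all probes were higher and the median change was 0.31. The median over the 10 was 0.26. Over all tested probes 24.4% were higher and the median was -0.59. Hprt1, a purine salvage enzyme, lay at 2.98, 3.28 and 3.12 in WKY and at 3.72, 4.31 and 4.42 in SHR-Bh (change 1.02, SE 0.25; adjusted p = 0.0033). Actb, cytoplasmic actin, varied within groups, at 3.12, 3.25 and 4.35 in WKY and at 4.60, 3.49 and 3.67 in SHR-Bh (change 0.35, 95% confidence interval -0.51 to 1.21; adjusted p = 0.45). This interval leaves room for a change of either sign, and the signs of Actb, B2m, Gusb and Sdha turned under other scalings. B2m, the light chain of class I histocompatibility molecules, differed by 0.32 (adjusted p = 0.26), the chaperone Hsp90ab1 by 0.46 (adjusted p = 0.093), and the lysosomal enzyme Gusb by 0.02 (adjusted p = 0.97).

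None of the 3 named genes of glycolysis and mitochondria passed the test, against 58.9% called among all probes measured on all 6 arrays. All 3 also belong to the reference genes above, so their results are counted there too. Pgk1, the glycolytic phosphoglycerate kinase, lay at 7.81, 8.03 and 7.80 in WKY and at 7.30, 7.95 and 7.87 in SHR-Bh (change -0.18, SE 0.27; adjusted p = 0.59). Sdha, a subunit of succinate dehydrogenase, differed by 0.20 (SE 0.48; adjusted p = 0.73). Ldha, the lactate dehydrogenase of glycolytic tissue, had 2 probes that disagreed. The brighter, with 30 spots, lay at 8.74, 8.77 and 8.65 in WKY and at 7.97, 8.52 and 8.25 in SHR-Bh (change -0.47, SE 0.25; adjusted p = 0.12). The other, with 10 spots, lay at 3.37, 3.96 and 4.01 in WKY and at 4.85, 5.12 and 4.99 in SHR-Bh (change 1.21, SE 0.31; adjusted p = 0.0048). The groups did not overlap on either probe, in opposite directions, so no direction is given for the gene. Among genes of RNA processing and transcription, Magoh of the exon junction complex differed by 0.36 (adjusted p = 0.25), the Mediator subunit Med16 by 0.28 (adjusted p = 0.49) and Pop7, a subunit of ribonuclease P, by 0.05 (adjusted p = 0.88); each of these signs turned with the percentile over shared probes.

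In several genes the SHR-Bh arrays were unlike each other, and the same array, SHR-Bh 1, was the high one. These genes were singled out after their values were seen. In other named genes SHR-Bh 1 was the low array, as in Slc28a2 (3.51 against 4.98 and 5.03) and Sdha (7.36 against 8.40 and 8.18). Ppp2r2b, which directs the phosphatase PP2A to its substrates and is prominent in neurons, lay at 1.42 on SHR-Bh 1 and at -2.73 and -2.79 on the other SHR-Bh arrays, while the WKY arrays were at -2.93, -2.60 and -2.21. The change of 1.21 (SE 1.38; adjusted p = 0.45) therefore rested on 1 array and was -0.18 without it. The SHR-C arrays were all high, at 1.67, 1.69 and 1.33, and of the SHR-Ca arrays the first was low (-3.22) and the others high (1.73 and 2.53). Ptk2b, a calcium-activated tyrosine kinase related to focal adhesion kinase, lay at -1.01 on SHR-Bh 1 and at -2.41 and -2.29 on the others, against -3.01, -2.52 and -2.07 in WKY (change 0.63, SE 0.60; adjusted p = 0.37). Quantile normalization made it 1.62 with an adjusted p of 0.031. Odf2l, a centrosomal protein, lay at 3.96 on SHR-Bh 1 and at 1.65 and 1.56 on the others, all above the WKY arrays at -0.24, -0.34 and -0.71; its change was 2.82 (SE 0.59; adjusted p = 0.0013) and 2.04 without SHR-Bh 1. Map2, a microtubule-associated protein of dendrites, lay at -3.47 on SHR-Bh 1 and at -5.60 and -6.53 on the others, of which it was above background on SHR-Bh 1 alone, against -3.53, -3.72 and -3.78 in WKY (change -1.52, SE 0.98; adjusted p = 0.19; 0.24 with normexp). The same order held in P2rx2, an ATP-gated ion channel that was not tested: it lay at -2.24 on SHR-Bh 1 and at -5.67 and -6.53 on the others, against -5.29, -4.78 and -4.40 in WKY. Dlg4, a postsynaptic scaffold also not tested, lay at -3.93 on SHR-Bh 1 and at -5.22 and -5.29 on the others. P2rx2 and Dlg4 were each above background on only 1 SHR-Bh array, so their low values were near the limit of detection. Over all tested probes, SHR-Bh 1 lay at least 2 units above both other arrays of its group on 586 (2.03%) and as far below them on 81, and WKY 1 lay as far above both others of its group on 728 (2.52%). SHR-Bh 1 and SHR-Bh 3 shared a scan session; the part of single arrays or sessions in these values was not tested.

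**Figure D4:**
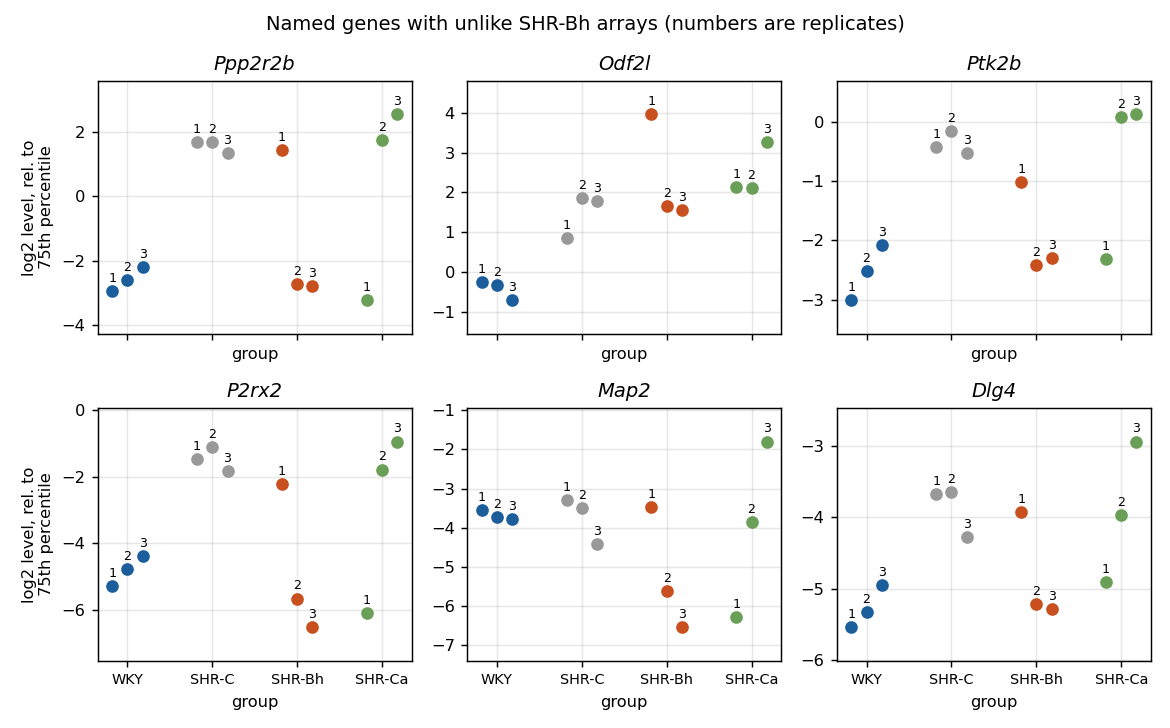
Log2 level relative to the array's 75th percentile (vertical axes) of 6 named genes on each of the 12 arrays by group (horizontal axis), with the replicate number above each point. The genes were chosen after their values were seen, and SHR-Bh 1 lies above the other SHR-Bh arrays in each panel. For Ppp2r2b it is at 1.42 against -2.73 and -2.79.

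The remaining untested genes were near the limit of detection. Pdk3, a pyruvate dehydrogenase kinase, was above background on 2 of 3 arrays in each group. Napepld, which makes N-acylethanolamines, and Nlrp3, the inflammasome sensor, were above background on 1 WKY array and no SHR-Bh array. Lhcgr, the luteinizing hormone receptor, and Gdnf, a neurotrophic factor, were above background on no array of either group. None of the 11 listed genes of the renin-angiotensin system and vessel tone is named on the array.

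SHR-Bh was compared directly with SHR-C to see how much of a difference from WKY went with treatment. No SHR-Bh array shared a scan session with an SHR-C array, so this comparison also lies between sessions. Unlike the WKY session, these sessions were partly joined by SHR-Ca arrays. Some SHR-Ca arrays shared the session of SHR-C 2 and SHR-C 3, and another that of SHR-Bh 1 and SHR-Bh 3. The SHR-C arrays, SHR-Bh 1 and SHR-Bh 3 were scanned on the same day. The part of the session in this comparison was not tested. None of the 31 named genes differed between SHR-Bh and SHR-C by limma (adjusted p under 0.05; 0.139% of all tested probes did), and 1, Ptk2b, had an unadjusted p under 0.05 (0.027), against 10.9% of all tested probes. For Cyp2e1 the difference was -0.23 (SE 0.29; adjusted p = 0.77), for Cdh2 -0.36 (SE 0.34; adjusted p = 0.70), for Trim2 0.59 (SE 0.29; adjusted p = 0.47) and for Eif4b -0.21 (SE 0.25; adjusted p = 0.77). For these genes the difference between SHR groups was small beside that from WKY, but a p above the threshold does not show that treated and untreated SHR were alike. Ppp2r2b had the widest difference of the named genes, -2.93 (SE 1.38; adjusted p = 0.46).

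The other SHR groups were compared with the same WKY arrays, so their values are given only side by side. Cyp2e1 differed from WKY by 7.33 in SHR-Bh, 7.57 in SHR-C and 8.73 in SHR-Ca. Cdh2 differed by 3.09, 3.45 and 3.44, Trim2 by 2.83, 2.24 and 2.54, and Enpp1 by 1.85, 1.38 and 1.64, in the same order of groups. These genes were thus above WKY in the untreated and the captopril-treated SHR as well. Of the 31 named genes, 17 were higher and none lower in SHR-C than in WKY, where 62.3% of all tested probes were called and 21.3% were higher. In SHR-Ca 17 were higher and 2 lower, Pgk1 and the brighter Ldha probe, whose second probe was the higher in SHR-Ca (difference 0.86; adjusted p = 0.028); here 66.9% of all tested probes were called and 22.8% were higher.

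**Figure D5:**
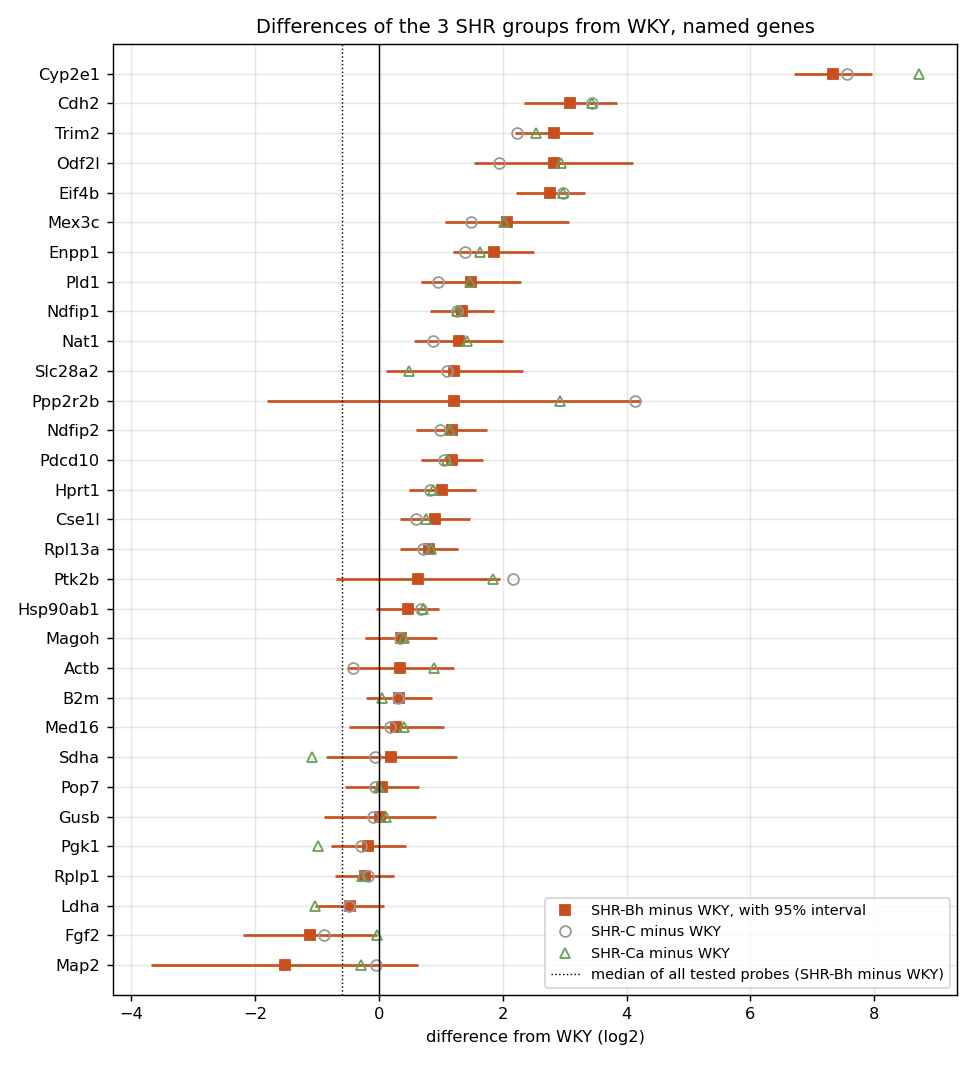
Difference from WKY (log2, horizontal axis) of each tested named gene (rows) in SHR-Bh (squares, with 95% confidence intervals), SHR-C (circles) and SHR-Ca (triangles); the dotted line is the median of all tested probes for SHR-Bh, -0.59. All 3 comparisons share the WKY arrays. Ppp2r2b has the widest interval, -1.81 to 4.24; values near 0, such as those of Actb and Gusb, changed sign under other scalings.

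Among probes that could not be matched to a gene and were measured on all 6 arrays, the 2 widest rises and the 2 widest falls are given. Probe ASRNV20024450 lay at -3.78, -3.31 and -3.49 in WKY and at 2.42, 2.94 and 2.94 in SHR-Bh, a change of 6.29 (SE 0.33; adjusted p = 1.7e-07) or 78.4-fold. ASRNV20032162 rose by 6.60 (SE 1.19; adjusted p = 0.00048), from 0.44, -3.86 and -4.72 to 6.09, 2.95 and 2.63, with replicate 1 high in both groups. ASRNV20014719 fell by 8.78 (SE 0.42; adjusted p = 1.2e-07) or 440.8-fold, from 6.56, 6.67 and 6.60 in WKY to -1.92, -2.43 and -2.17 in SHR-Bh. ASRNV20006690 fell by 8.69 (adjusted p = 1.2e-07) or 414.4-fold. With normexp the 4 changes were smaller, 6.29 becoming 4.44, 6.60 becoming 4.99, -8.78 becoming -7.48 and -8.69 becoming -6.92. The choice of these 4 probes required an adjusted p under 0.05 by limma and no overlap between the SHR-Bh and WKY arrays. Neither is therefore a result for them. Typical changes were far smaller: among probes measured on all 6 arrays the median change was 1.46 for those called higher and -1.69 for those called lower.

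Probes against ultraconserved elements, stretches identical between the human, mouse and rat genomes, gave 50 higher and 331 lower calls among 448 tested, with a median change of -2.34, against 24.4% higher and 44.0% lower over all tested probes. Of these probes 441 passed the filter through WKY and 146 through SHR-Bh. Where the probe was measured on all 6 arrays, 43 of 139 were higher and 52 lower, with a median change of -0.21, against 34.7% and 24.2% of all probes so measured. Most of the lower ultraconserved calls were thus on probes that were not measured on all 6 arrays.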

How the data were processed

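The authors deposited Agilent Feature Extraction output for each array, with the processed intensity of every spot on a linear scale; per the file headers it was made with version 11.0.1.1 on a design annotated to rn4, and no spot was flagged as saturated. The spot flags deposited beside the intensities (above background, outlier) were used as filters.

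Control spots were left out of 43040, leaving 41623 per array, and 61 to 235 outlier-flagged spots were dropped. Log2 intensity was averaged per probe and the array's 75th percentile subtracted. A probe counted as above background where more than 0.5 of its spots did. Probes above background on all 3 arrays of SHR-Bh or WKY were tested with limma 3.58.1 (R 4.3.3; lmFit and eBayes, all 12 arrays, 1 mean per group, two-sided, 8 residual degrees of freedom before moderation) with Benjamini-Hochberg adjustment over 28844 probes. A gene with several probes was represented by the brightest. The number of arrays limits the precision: the median SE of a change was 0.338. In simulated data for this comparison, 11 of 100 probes changed 2-fold and 65 of 100 changed 4-fold were recovered, with 5 false calls. No other of the 28844 simulated probes was changed, whereas 68.3% of the tested probes were called in the data. The adjustment was therefore stricter in the simulation, and its recovery does not measure that of the data.

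Of 62 probes with an accession, 39 matched RefSeq. Every named gene is accounted for. Of unnamed probes measured on all 6 arrays that passed the test without overlap, the 2 largest rises and 2 largest falls are given. The members, gene lists and tests were chosen with earlier results of these data known. Same-numbered WKY and SHR-Bh arrays deviated together (correlations 0.33, 0.15 and 0.27), but for number 3 an array of another number correlated more highly (0.278 against 0.268). A pairing by number comes from the data, not from the labels. It was used in the replicate block alone, and the main fit did not pair the arrays. The alternatives covered normalization, background correction, filters, array weights, blocks, the arrays fitted and leaving out each array. The files used here hold no mean spot signal, so normexp (offset 50) used spot medians. A low-dose BSJY group named in the labels was not analysed here.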

Additional observations from a re-analysis of the deposited data

How the results depend on the processing

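The 16 higher genes kept their sign in all alternatives in which they were tested (Mex3c was not under the strict filter). Of 931 comparisons of a result with an alternative, 827 counted as the same. For a gene or single probe this meant the same direction and the same side of the threshold. For counts, shares and medians it meant a shift within a set margin, without regard to their spread, and a median also had to keep its sign. The cause of the changes given here was not tested, except that the stricter filter tests fewer probes. The whole table depended most on the background: the calls came to 11901 (5379 lower; median change of all probes 0.12) with normexp, and to 10771 (4422 lower; median 0.31) when only probes above background on all 6 arrays were tested; quantile normalization moved the median to -0.15, the percentile over shared probes to -0.99 and scaling on 10 reference genes, an alternative chosen after seeing the data, to -0.82. Lower ultraconserved calls were 107 with normexp and 52 with the strict filter, and 77 were higher with no filter. With the scan session as a random block (correlation 0.1097) 18828 probes were called. This block cannot adjust SHR-Bh minus WKY for the session, because no SHR array shared the session of the WKY arrays. With the replicate block 19499 probes and 15 named genes were called, Slc28a2 being lost (adjusted p = 0.063); it changed no other named gene's call. The 40 probes that differed between SHR-Bh and SHR-C numbered 15 with this block, 16 with quantile normalization, 8 with the session block and 218 with array weights; without single arrays they numbered 0 (any WKY array or SHR-Bh 3), 15 (SHR-Bh 2) or 79 (SHR-Bh 1).

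Lower named genes, 0 as reported, numbered 3 with the percentile over shared probes (the brighter Ldha probe, Rplp1, Fgf2), 3 with array weights (Ldha, Fgf2, Map2; the weights stopped short of convergence), 2 with reference scaling (Ldha, Fgf2), 1 with only the 2 groups (Fgf2), and 0 to 1 with an array left out (1, Fgf2, without SHR-Bh 1). Signs turned as follows. With the shared-probe percentile: Actb -0.0531, B2m -0.0804, Gusb -0.38, Magoh -0.0423, Med16 -0.12, Pop7 -0.35 and Sdha -0.20. With quantile normalization: Actb -0.0604, Gusb -0.25, Pop7 -0.34 and Fgf2 0.11. With normexp: Gusb -0.0483, Pop7 -0.0265, Fgf2 0.0525 and Map2 0.24. With reference scaling: Gusb -0.21, Pop7 -0.18 and Sdha -0.0297. The mean of both Ldha probes was 0.37. With an array left out, ranges were -0.0387 to 0.167 for Pop7, -0.114 to 0.172 for Gusb, -0.298 to 0.0292 for Pgk1, -0.178 to 1.93 for Ppp2r2b and -0.0099 to 0.511 for Sdha. The total of called probes then ranged from 17851 to 19483. Scaling on the spike-in probes was not run, since 1 or 2 of 10 were above background on the SHR-Bh arrays and 4 to 6 on the WKY arrays. Changes between dim probes, above background on few arrays, are limited by signal over background.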

Other observations

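Probes outside the named genes and the design's own identifiers were few. Of 23 probes with an accession that matched no gene, 21 were tested, and 11 were higher and 3 lower in SHR-Bh, with a median change of 0.82. Of 20 custom probes, 6 were tested, and all 6 were lower, with a median change of -2.33. Over all tested probes 24.4% were higher and 44.0% lower, with a median change of -0.59.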
